A study of Homo sapiens with 18 samples.

Results

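Olfactory receptor genes outside chromosome 11 were followed in U937, a human acute myeloid leukaemia cell line in long use, by how much of each gene lay in domains of histone H3 lysine 9 trimethylation (H3K9me3) and histone H3 lysine 27 trimethylation (H3K27me3). The genes were taken from the RefSeq annotation of GRCh38.p14 as the protein-coding genes of chromosomes 1-10 and 12-22 whose symbol has the form of a functional receptor gene (OR, a family number, a subfamily letter and a member number). This gave 220 of the 19974 protein-coding genes of chromosomes 1-22 and X. No measured value entered that choice.

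Chromatin immunoprecipitation and sequencing was done in 3 genotypes of U937, with 2 libraries for each genotype and mark. They were cells knocked out for both SUV39H1 and SUV39H2 (DKO), cells knocked out for SUV39H1 alone (SKO), and cells carrying a control guide (sgControl). SETDB1, another H3K9 methyltransferase, had 2 libraries from wild-type (WT) cells, and the 4 input samples of the 18 in the series were not analysed here. The sources used here do not say whether a knockout line was a clone or a pool, nor if each replicate was a culture of its own, and the spread between libraries may be technical. The domain lists check neither knockout, since SUV39H1 and SUV39H2 lay outside domains of both marks in all 12 libraries.

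Each sensory neuron of the nose expresses a single olfactory receptor allele, and every other receptor gene stays silent there, as do all of them in most other tissues. The receptors are G protein-coupled receptors with a coding region in a single exon, arranged in tandem clusters that arose by duplication. In mouse olfactory neurons the silent clusters are packed in heterochromatin that carries H3K9me3. SUV39H1, SUV39H2 and SETDB1 lay down H3K9me3, and the Polycomb repressive complex lays down H3K27me3.

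Domains had been called by the authors in each library on its own with epic2, a caller for broad marks, and were given on a grid of 800 bp. H3K9me3 domains covered 788-795 Mb in DKO, 754-756 Mb in SKO and 1013-1044 Mb in sgControl, from 16.5-20.6 M reads inside domains in DKO, 20.2-21.0 M in SKO and 18.0-23.6 M in sgControl. H3K27me3 domains covered 1198-1225 Mb in DKO, 1200-1210 Mb in SKO and 1058-1062 Mb in sgControl, from 47.9-69.3 M reads in DKO, 59.9-70.7 M in SKO and 48.5-50.3 M in sgControl. A Drosophila spike-in had been added, per the labels' protocols, but the lists carry no spike-in factor, so they show where a domain was called and not how much of a mark there was. All 10 housekeeping genes and 12 of 14 myeloid genes were free of H3K9me3 in every library, the exceptions being ITGAM and CD33, against 57.4% of all protein-coding genes. All of both lists were free of H3K27me3, against 75.4% of all genes. Of 7 T cell and 6 B cell genes, 5 and 4 were free of H3K9me3 and all of H3K27me3, and of 5 erythroid genes 3 were free of each mark. These lists therefore do not tell the labelled myeloid type from the lymphoid lineages.

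The 220 genes lay on 16 chromosomes, with 61 on chromosome 1, 25 on chromosome 9, 24 on chromosome 14 and 20 on chromosome 19. Joined where neighbours lay within 500 kb, they formed 26 clusters and 10 single genes, and 180 of them sat in 14 clusters of at least 5. Clusters are named here by their first and last member. The median gene length was 5114.5 bp and 90 genes were shorter than 1600 bp, so a gene often lay wholly inside or wholly outside a domain. A value of 0% or 100% for a short gene therefore rests on few steps of the grid.

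Their promoters were poor in G, C and CpG dinucleotides. RefSeq promoters, which run from 250 bases before to 50 bases after the annotated start, were at hand for 178 of the 220 genes. The word promoter stands here for that window. For some receptors the annotated start is the start codon: the last 50 bases of the OR4L1 and OR10J5 windows printed below begin with atg. Such a window may not hold the true promoter, which limits the comparison with other genes, and how many members this concerns was not counted. Their median G+C content was 38.3%, against 63.0% over 15498 promoters of other protein-coding genes, and the median number of CpG dinucleotides was 1 against 22. At most 3 CpG were found in 152 of the 178 receptor promoters (85.4%), against 13.4% of all 15811 promoters. The 6 letters TAATTA, a palindrome that reads the same on both strands and the core of many homeodomain sites, stood in 39 of the 178 (21.9%), against 3.35% of all promoters. TAATTA holds no G or C, and the receptor promoters had a lower G+C content than the others. Whether the share exceeds what base content alone would give was not tested.

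The following promoters are those of receptors described below: OR5H14, OR4L1 and OR10J5 gained H3K27me3 domains in both knockouts, and OR6B3 and OR10H1 lost them. They are printed 5′ to 3′ on the strand of the gene with each CpG in capitals, from GRCh38.p14 at chr3:98147229-98147528 (plus strand), chr14:20059795-20060094 (plus), chr1:159535958-159536257 (minus), chr2:240053472-240053771 (minus) and chr19:15815615-15815914 (minus).
OR5H14: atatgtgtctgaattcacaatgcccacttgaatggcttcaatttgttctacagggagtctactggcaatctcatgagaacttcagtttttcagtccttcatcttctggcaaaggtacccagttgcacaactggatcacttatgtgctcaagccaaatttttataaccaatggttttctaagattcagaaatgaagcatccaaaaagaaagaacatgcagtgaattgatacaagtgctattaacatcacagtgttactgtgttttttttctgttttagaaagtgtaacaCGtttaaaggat
OR4L1: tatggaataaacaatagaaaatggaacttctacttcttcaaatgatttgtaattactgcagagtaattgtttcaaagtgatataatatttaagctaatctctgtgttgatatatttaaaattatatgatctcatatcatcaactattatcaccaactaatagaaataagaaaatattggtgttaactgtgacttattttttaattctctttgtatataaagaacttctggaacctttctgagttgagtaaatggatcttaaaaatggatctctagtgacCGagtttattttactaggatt
OR10J5: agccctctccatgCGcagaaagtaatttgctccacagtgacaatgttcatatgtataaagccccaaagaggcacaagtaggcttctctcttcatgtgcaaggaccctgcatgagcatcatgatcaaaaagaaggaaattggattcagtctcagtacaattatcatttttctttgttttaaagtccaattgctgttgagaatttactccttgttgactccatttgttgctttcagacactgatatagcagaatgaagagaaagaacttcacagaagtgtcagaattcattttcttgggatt
OR6B3: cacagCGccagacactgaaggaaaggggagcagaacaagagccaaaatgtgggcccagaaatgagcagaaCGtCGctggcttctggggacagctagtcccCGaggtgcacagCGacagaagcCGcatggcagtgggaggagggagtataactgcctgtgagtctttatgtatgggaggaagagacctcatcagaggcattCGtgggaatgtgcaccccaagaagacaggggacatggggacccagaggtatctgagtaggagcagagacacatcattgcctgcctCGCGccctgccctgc
OR10H1: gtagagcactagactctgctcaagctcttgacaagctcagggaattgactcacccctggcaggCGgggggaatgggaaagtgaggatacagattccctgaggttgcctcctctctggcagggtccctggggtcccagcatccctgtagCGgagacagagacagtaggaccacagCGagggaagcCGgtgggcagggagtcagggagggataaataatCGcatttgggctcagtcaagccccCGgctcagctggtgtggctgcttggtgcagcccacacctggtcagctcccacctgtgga
The first 3 held 1 CpG each, with G+C contents of 36.3%, 26.3% and 38.7%, while OR6B3 held 9 CpG at 57.3% and OR10H1 held 6 CpG at 60.0%. Among all members called for H3K27me3 in either knockout, the 11 gained ones with a promoter sequence, of 16, had 26.3% to 47.3% G+C (median 36.3%) and the 5 lost ones with a sequence, of 9, had 45.7% to 60.0% (median 57.3%). That split was made after the calls were seen. The 97 promoters of members at 100% H3K27me3 in all 6 libraries had a median of 37.0%, so the base content of the gained members was that of most receptor promoters.

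Receptor genes lay in both kinds of domain far more often than other genes in every genotype. In H3K9me3 domains lay on average 54.9% ± 0.840 of a receptor gene in DKO, 50.1% ± 0.518 in SKO and 59.5% ± 1.68 in sgControl (SD, n = 2 libraries each), against 15.5%, 15.5% and 15.8% over the 19582 genes that are no olfactory receptor. In H3K27me3 domains lay 64.4% ± 0.486, 62.2% ± 0.240 and 61.5% ± 0.297 in DKO, SKO and sgControl, against between 13.9% and 14.4% of other genes in the 3 genotypes. With 2 libraries against 2, an exact permutation test cannot go below p = 0.33, so no p is given for these means. The H3K9me3 order depended on how much each list covered: with all lists trimmed from the lowest score to the covered length of the shortest, the means were 52.8% in DKO, 49.8% in SKO and 47.7% in sgControl. The H3K27me3 means then became 57.5%, 57.2% and 61.5%.

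Receptor pseudogenes and other genes of the clusters were less covered than the receptors. The 265 receptor pseudogenes of the same chromosomes averaged 36.2%, 36.7% and 39.6% H3K9me3 in DKO, SKO and sgControl, and 47.3%, 45.0% and 44.5% H3K27me3. The 75 other protein-coding genes that lie inside the clusters averaged 29.4%, 27.5% and 23.7% H3K9me3 but only 12.3%, 13.8% and 14.7% H3K27me3, near the other genes of the genome. The 171 receptor genes of chromosome 11 had 53.3%, 32.5% and 52.5% H3K9me3 and 75.1%, 73.9% and 71.8% H3K27me3.

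Taken gene by gene, most receptors carried both marks or neither. Both marks covered at least 50% of the gene in both libraries for 91 genes in DKO, 77 in SKO and 89 in sgControl. H3K27me3 alone did so for 27, 37 and 23 genes, H3K9me3 alone for 16, 18 and 31, and neither mark for 50, 55 and 49, while the libraries disagreed for 36, 33 and 28. The same state held in all 3 genotypes for 109 genes, of which 56 carried both marks, 10 H3K9me3 alone, 7 H3K27me3 alone and 36 neither. In sgControl 40.5% of the receptors carried both marks, against 6.64% of genes that are no olfactory receptor.

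**Figure D1:**
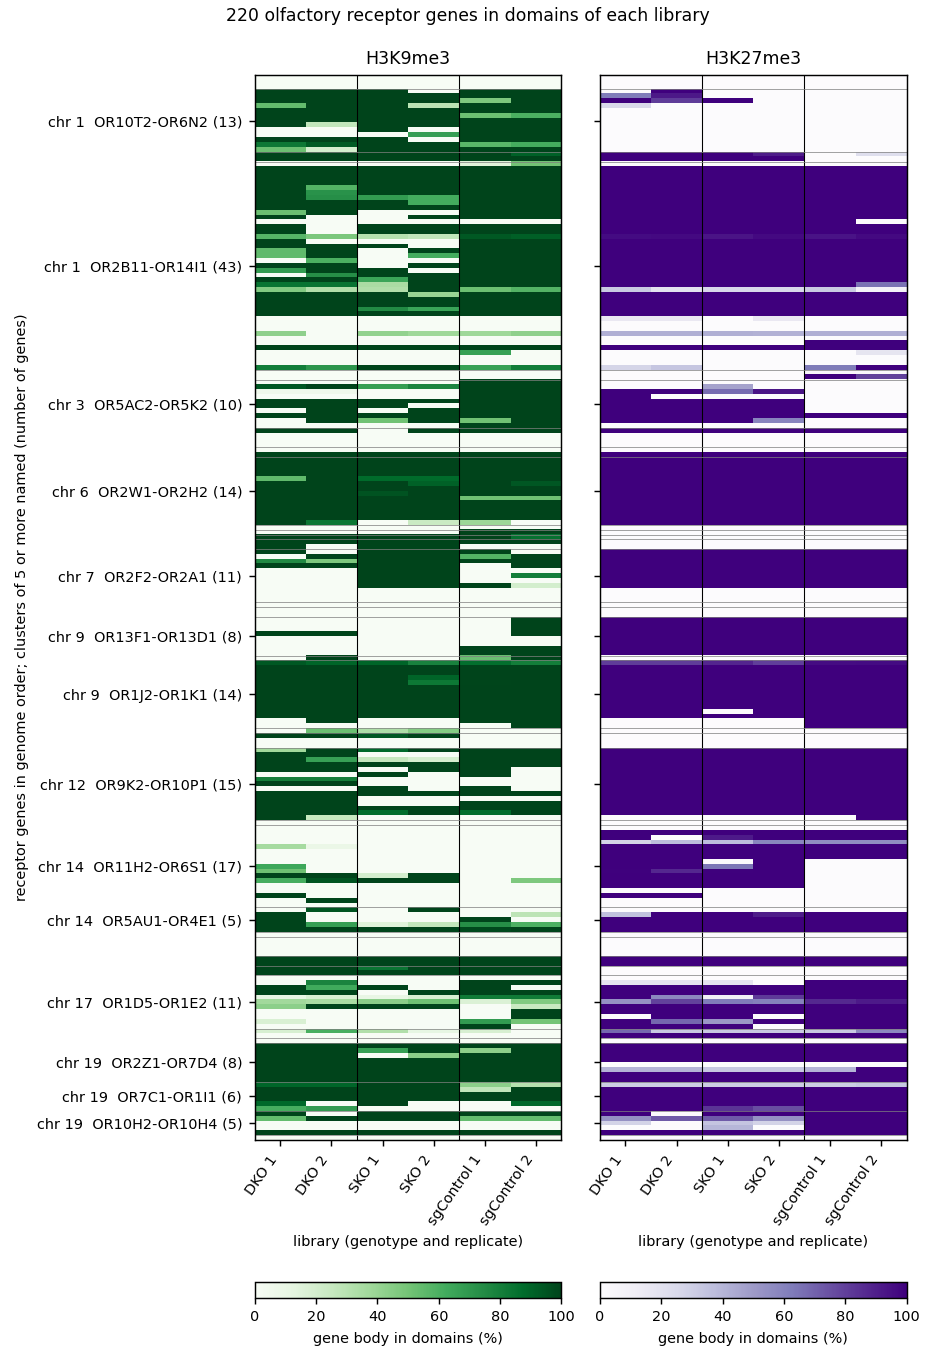
Percent of each receptor gene body inside H3K9me3 (left, green) and H3K27me3 (right, purple) domains, with 1 row per gene in genome order and 1 column per library, in the order DKO, SKO and sgControl; the grey lines separate clusters and single genes. Of the 220 genes, 110 were at 100% in all 6 H3K27me3 libraries and 50 in all 6 H3K9me3 libraries, and 33 genes were at 0% for both marks throughout.

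A gene was called gained or lost when no library of one genotype fell within the range of the other and the closest libraries stood 25 percentage points or more apart. This is a rule of size with no p-value. The median change was 0 percentage points in each of the 6 comparisons, both over the receptors and over all genes. The shares of all genes called by the same rule are given beside each count, and because a gene at 0% cannot lose a domain and one at 100% cannot gain one, so are the shares among genes that could be called.

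For H3K9me3, 10 receptors were gained and 15 lost in DKO against sgControl, where 3.84% of all genes were gained and 4.23% lost. Of the receptors that could be called, 11.9% of 84 were gained, against 4.45% of all such genes, and 11.8% of 127 were lost, against 23.1%. In SKO against sgControl 12 were gained (background 4.11%) and 24 lost (4.5%), which is 14.3% of 84 and 18.9% of 127 that could be called, against 4.77% and 24.6%. In DKO against SKO 12 were gained (1.46%) and 6 lost (1.34%), or 11.9% of 101 and 5.71% of 105, against 1.65% and 7.26%. Over all 220 receptors the shares were 4.55% gained and 6.82% lost in DKO and 5.45% and 10.9% in SKO, so how the receptors stood against all genes depended on the denominator, and no test was made of these shares. With lists trimmed to equal covered length the split turned to 23 gained and 10 lost in DKO, and to 23 gained and 13 lost in SKO, against sgControl, while DKO against SKO had 10 and 6. Trimming cut the sgControl lists most for this mark and the SKO lists hardly at all. A gain in SKO could therefore hardly fail to be called again, and one in DKO only where the DKO lists were cut. The return of gains is thus no check. Of the original calls, 9 of the 10 gains and 10 of the 15 losses in DKO, and 12 of the 12 gains and 13 of the 24 losses in SKO, were also made at equal covered length. Leaving out a library relaxes the rule: without DKO replicate 1, DKO replicate 2 or sgControl replicate 2 there were 18 gained in DKO, and without DKO replicate 1, DKO replicate 2 or sgControl replicate 1 there were 27, 28 and 23 lost. Without sgControl replicate 2, 19 were gained in SKO. In DKO against SKO, 19 and 22 were gained without DKO replicates 1 and 2, 22 and 23 without SKO replicates 1 and 2, and 17 and 14 were lost without DKO replicates 1 and 2.

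For H3K27me3, 16 receptors were gained and 9 lost in DKO against sgControl, with 3.82% of all genes gained and 3% lost. Of those that could be called these were 18.8% of 85 and 6.57% of 137, against 4.45% and 18.6%. In SKO against sgControl 12 were gained (3.37%) and 9 lost (3.15%), or 14.1% of 85 and 6.57% of 137, against 3.93% and 19.5%. In DKO against SKO 3 were gained (0.726%) and 0 lost (0.365%), and the 3 were OR10K2, OR14I1 and OR11H6. These were 3.61% of 83 and 0% of 140 that could be called, against 0.843% and 2.22%. With lists trimmed to equal covered length the split was 8 gained and 15 lost in DKO and 7 gained and 14 lost in SKO, against sgControl, and 0 and 2 in DKO against SKO. The sgControl lists were the shortest for this mark, so trimming took domains almost only from the knockout lists. A loss in a knockout could therefore hardly fail to be called again, and its return is no check. Of the original calls, 8 of the 16 gains and 9 of the 9 losses in DKO, and 7 of the 12 gains and 9 of the 9 losses in SKO, were also made at equal covered length, and 0 of the 3 gains in DKO against SKO. In that last comparison 6 were gained without DKO replicate 2, 6 and 8 without SKO replicates 1 and 2, and 3, 1 and 2 were lost without DKO replicate 1, DKO replicate 2 and SKO replicate 2. SKO and DKO were each compared with the same sgControl libraries, so their calls are not independent.

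Most H3K27me3 gains lay in 3 places: the OR5 cluster of chromosome 3 (5 genes in each knockout), the OR10J pair of chromosome 1 (2 genes in each) and the first chromosome 14 cluster (7 genes in DKO, of which OR11H6 is the one outside family OR4, and 5 in SKO). H3K9me3 losses and H3K27me3 gains met on a single gene, OR5H14, whose H3K27me3 gain was not called with lists of equal covered length. It was 1 of the 15 receptors that lost H3K9me3 in DKO (6.67%), against 12.3% of the 845 genes that did so over the genome, and 8 of the 15 (53.3%) lay at least 50% in H3K27me3 domains in both DKO libraries, against 42.5% of those 845 genes. It was 1 of the 24 that lost H3K9me3 in SKO (4.17%), against 10.9%, and 15 of the 24 lay at least 50% in H3K27me3 domains in both SKO libraries, or 62.5%, near the 61.3% of all 899 genes that lost H3K9me3 there. All 12 receptors that gained H3K9me3 in DKO against SKO lay at least 50% in H3K27me3 domains in both genotypes, and of all 291 genes that did so 78.4% had that in DKO.

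Over whole clusters, percent of the span was used, from the start of the first member to the end of the last, and shares called over 12129 windows of 250 kb gave the background. Of the 36 clusters and single genes, H3K9me3 was lost over 3 in DKO against sgControl (13.5% of windows) and 4 in SKO (14.5%), and gained over 1 in each (2.61% and 2.18%). Single genes were among them: OR2AE1 of the losses in both knockouts, OR2K2 of those in SKO, and OR13A1 as the gain in SKO. That left 2 lost clusters in each knockout. The spans ran from 0.939 to 1253.65 kb, so windows of 250 kb are an unlike background, above all for single genes. H3K27me3 was gained over 2 in each knockout (11.2% in DKO and 10.9% in SKO) and lost over 2 in each (2.89% and 2.69%). In DKO against SKO, 1 cluster lost H3K9me3 (1.79%), 0 gained it (2.39%), and 0 were called for H3K27me3 (0.363% gained and 0.396% lost). At equal covered length the H3K9me3 split turned to 3 gained and 1 lost in DKO and 4 gained and 1 lost in SKO. The 1 lost was OR5AC2-OR5K2 in both. The gains there were OR9K2-OR10P1, OR2Z1-OR7D4 and OR7C1-OR1I1 in DKO. In SKO they were OR2F2-OR2A1, OR13A1, OR10AD1-OR5BS1 and OR7C1-OR1I1. The clusters called for H3K27me3 were called there too, which for losses was nearly fixed in advance, as for genes.

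**Figure D2:**
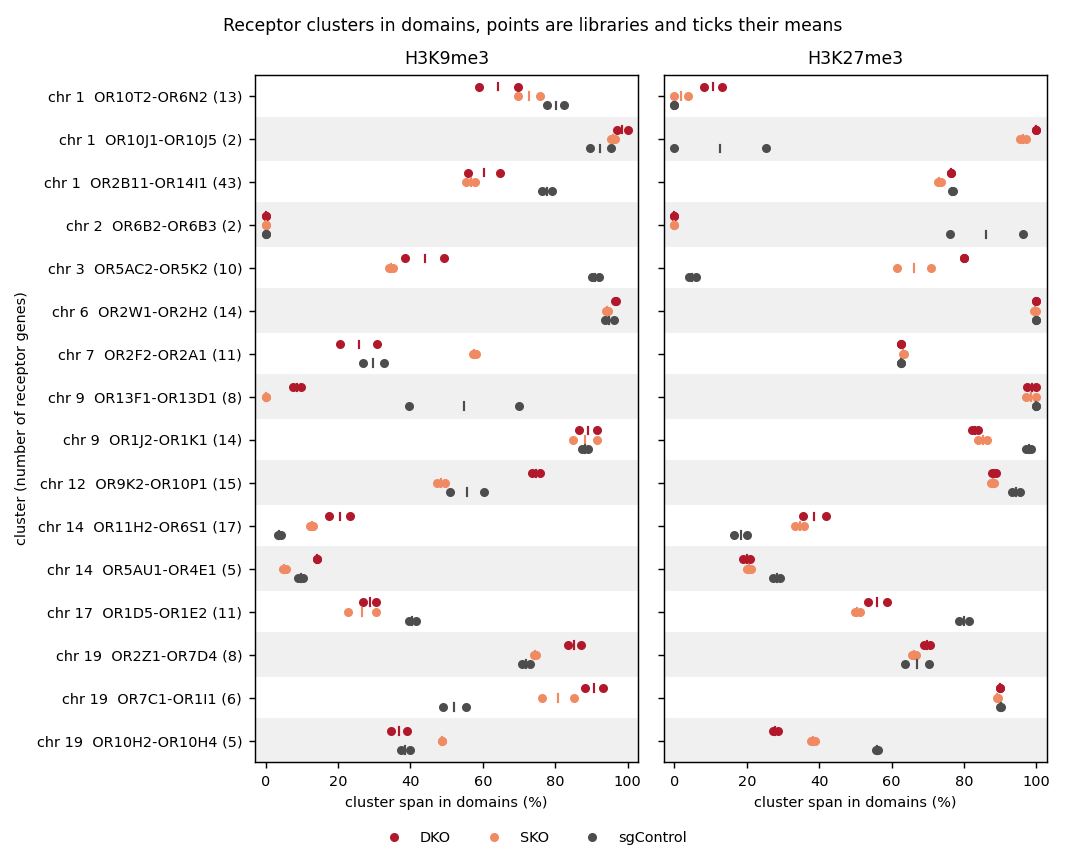
Percent of the span of each cluster of at least 5 receptors, and of the OR10J1-OR10J5 and OR6B2-OR6B3 pairs, inside domains of each mark; points are libraries, ticks the mean of the 2 libraries of a genotype, with DKO above SKO above sgControl in each row. The OR5AC2-OR5K2 row shows 38.5% to 49.4% H3K9me3 in DKO against 90.1% to 92.0% in sgControl, and 80.1% H3K27me3 in DKO against 4.08% to 5.83% in sgControl.

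The chromosome 3 cluster exchanged the marks. OR5AC2-OR5K2 (chr3:98087173-98498631) holds 10 receptors of family OR5. Its span was 38.5% and 49.4% in H3K9me3 domains in DKO and 34.0% and 35.2% in SKO, against 90.1% and 92.0% in sgControl. It was 80.1% and 80.1% in H3K27me3 domains in DKO and 71.0% and 61.4% in SKO, against 5.83% and 4.08% in sgControl. The knockout libraries lay far from the sgControl libraries for both marks, with mean differences of -47.1 (DKO) and -56.4 (SKO) percentage points for H3K9me3 and 75.1 and 61.2 for H3K27me3. Counting only 800 bp steps marked in both libraries, H3K9me3 alone covered 4.07% in DKO and 3.49% in SKO, against 82.6% in sgControl, and H3K27me3 alone covered 52.5% and 40.3%, against 0%. No other cluster was called lost for one mark and gained for the other.

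Within that cluster the genes differed in what they kept. OR5H14 (chr3:98147479-98156614) was at 5.71% and 5.71% H3K9me3 in DKO and 0% and 0% in SKO, against 100% and 100% in sgControl, and at 100% and 100% H3K27me3 in DKO and 67.0% and 93.3% in SKO, against 0% and 0%. It was the gene called for both marks, and its groups did not overlap for either. OR5H6 and OR5H2 were at 100% H3K27me3 in all 4 knockout libraries, against 0% in both of sgControl, and OR5H6 stayed at 100% H3K9me3 in all 6. OR5AC2 and OR5K2, at the 2 ends of the cluster, lost H3K9me3, with 0% in all 4 knockout libraries, against 100% in sgControl (for OR5AC2 not called at equal covered length), and had no H3K27me3 in any library. OR5H15 likewise had 0% H3K9me3 in all knockout libraries, against 100%, with H3K27me3 in DKO replicate 1 only. OR5K1, a receptor for pyrazines, had 0% and 100% H3K9me3 in DKO and 50.6% and 100% in SKO, against 50.6% and 100% in sgControl, so its H3K9me3 groups overlapped, and its H3K27me3 was gained in both knockouts. Over the whole of chromosome 3, H3K9me3 domains covered 62.6 to 64.1 Mb in DKO and 56.5 to 56.9 Mb in SKO, against 93.7 to 96.5 Mb in sgControl, and H3K27me3 domains 94.9 to 96.4 Mb in DKO and 95.6 to 95.9 Mb in SKO, against 86.4 to 86.9 Mb. The part of this chromosome-wide difference in the cluster's values was not tested.

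**Figure D3:**
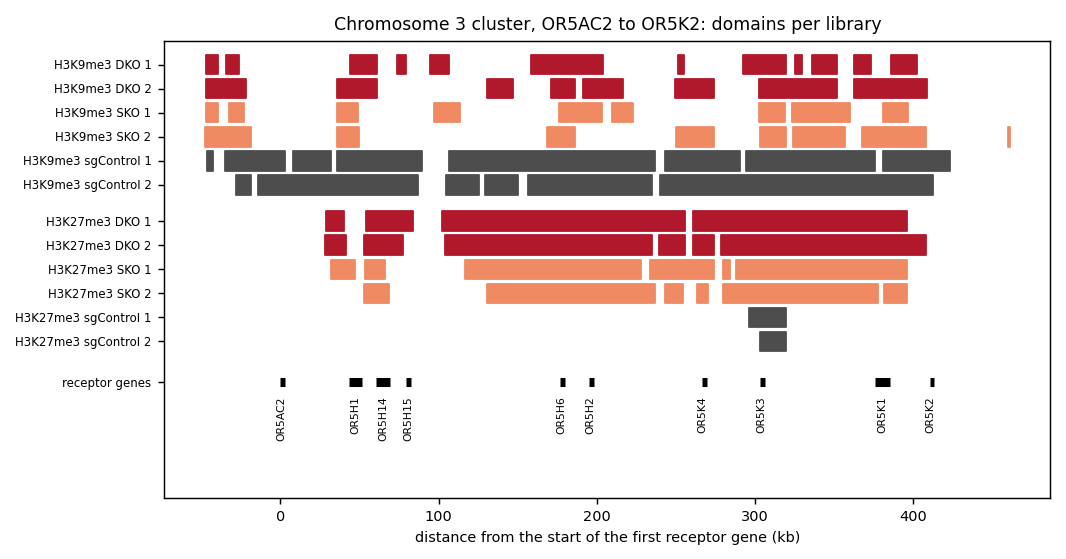
Domains over the chromosome 3 cluster by distance in kb from the start of OR5AC2, 1 row per library with DKO above SKO above sgControl for each mark, and receptor genes below (drawn at least 3 kb wide). The sgControl rows are nearly full for H3K9me3 and hold a single short H3K27me3 domain at OR5K3, while the knockout rows are broken for H3K9me3 and filled for H3K27me3 from OR5H6 to OR5K1.

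The OR10J pair of chromosome 1 gained H3K27me3 on top of H3K9me3. OR10J1-OR10J5 (chr1:159397465-159536007) was 100% and 100% in H3K27me3 domains in DKO and 95.4% and 97.1% in SKO, against 0% and 25.4% in sgControl, while its H3K9me3 was 100% and 97.1% in DKO, 95.4% and 96.5% in SKO, and 95.4% and 89.6% in sgControl. Both knockouts were far above sgControl for H3K27me3 and within a few points of it for H3K9me3. OR10J5, a receptor also described in blood vessel and liver cells, was at 100% H3K27me3 in all 4 knockout libraries, against 0% in both of sgControl. Before it on the chromosome, OR10T2-OR6N2 (chr1:158398522-158840396, 13 receptors) was a cluster of H3K9me3 alone: 58.9% and 69.8% in DKO, 75.9% and 69.6% in SKO, and 77.8% and 82.4% in sgControl, with H3K27me3 at 0% in both sgControl libraries. There OR10K2 had 62.2% and 92.1% H3K27me3 in DKO and 0% in both SKO and both sgControl libraries, and OR10K1 was gained in DKO as well. OR6K2 lost H3K9me3 in DKO, with 0% and 0%, against 100% and 100% in sgControl, and was at 100% and 0% in the SKO libraries. OR6K3 was at 0% and 0% in DKO and 0% and 67.3% in SKO, against 100% and 100% in sgControl. OR6N2 was at 51.6% and 19.8% in DKO, against 100% in all SKO and sgControl libraries. In the same cluster OR6P1 gained H3K9me3 in both knockouts, with 100% in all 4 libraries, against 51.9% and 59.9% in sgControl, and OR6N1 gained it in SKO, with 82.5% and 92.6% in DKO and 100% and 100% in SKO, against 56.4% and 61.4%. The gains of H3K27me3 on OR10K2 and OR10K1 were not called at equal covered length.

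Over the chromosome 14 cluster both knockouts had further H3K27me3 domains beyond OR4K1, where the sgControl libraries had none. OR11H2-OR6S1 (chr14:19712936-20641691, 17 receptors) was 41.8% and 35.6% in H3K27me3 domains in DKO and 33.4% and 35.9% in SKO, against 20.2% and 16.5% in sgControl, and 23.4% and 17.5% in H3K9me3 domains in DKO and 12.1% and 13.2% in SKO, against 3.36% and 4.13%. The groups did not overlap for either mark, but the nearest libraries were under 25 points apart, so the cluster as a whole was not called. Its span holds a stretch without receptors, from the end of OR11H4 at 531 kb to OR6S1 at 928 kb. No H3K27me3 domain of any library lay in that stretch, which lowers the percent of the span. With a 200 kb cluster gap, which parts OR6S1 from the rest, 3 clusters gained H3K27me3 in DKO, whose names are not given here. OR4L1 and OR4N5 were at 100% H3K27me3 in all 4 knockout libraries, against 0% in sgControl. OR4K17 was too, and OR4K14 had 100% and 100% in DKO and 64.0% and 100% in SKO, against 0% and 0%. OR4K15 was at 100% and 100% in DKO and 0% and 100% in SKO, and OR11H6 at 100% and 100% in DKO and 0% and 0% in SKO, both against 0% and 0% in sgControl. OR4L1 also gained H3K9me3 in DKO, with 100% and 100%, against 0% and 0% in sgControl, and stood at 19.5% and 100% in SKO. At equal covered length the H3K27me3 gains of OR4L1, OR4K17 and OR4N5 were called in both knockouts and those of the other genes of this cluster were not. Total H3K27me3 on chromosome 14 covered 33.0 to 34.7 Mb in DKO and 33.3 to 33.6 Mb in SKO, against 34.9 to 35.0 Mb in sgControl, so the chromosome as a whole did not share the cluster's direction. The smaller cluster further along, OR5AU1-OR4E1 (chr14:21154865-21673818, 5 receptors), had 18.8% and 21.0% H3K27me3 in DKO and 21.2% and 20.1% in SKO, against 29.2% and 27.3% in sgControl. In it OR4E2, a receptor for amyl acetate, had 100% and 66.9% H3K9me3 in DKO and 14.8% and 26.4% in SKO, against 73.6% and 59.4%, and 100% H3K27me3 in all libraries.

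Family OR4, of which 28 members lie in 9 clusters or alone, averaged 58.1% ± 3.50 H3K27me3 in DKO and 57.4% ± 4.20 in SKO, against 39.3% ± 0.628 in sgControl (SD, n = 2). Family OR5, 14 members, averaged 53.6% ± 5.05 and 48.8% ± 3.13, against 21.4% ± 0. In family OR1, 25 members, it was 81.1% ± 1.62 and 74.7% ± 1.73, against 91.8% ± 0.0170. The largest family, OR2 with 63 members, stood at 66.3% ± 0.130 and 66.2% ± 0.204, against 66.6% ± 1.55. Members of a family share clusters and so are not separate observations.

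**Figure D4:**
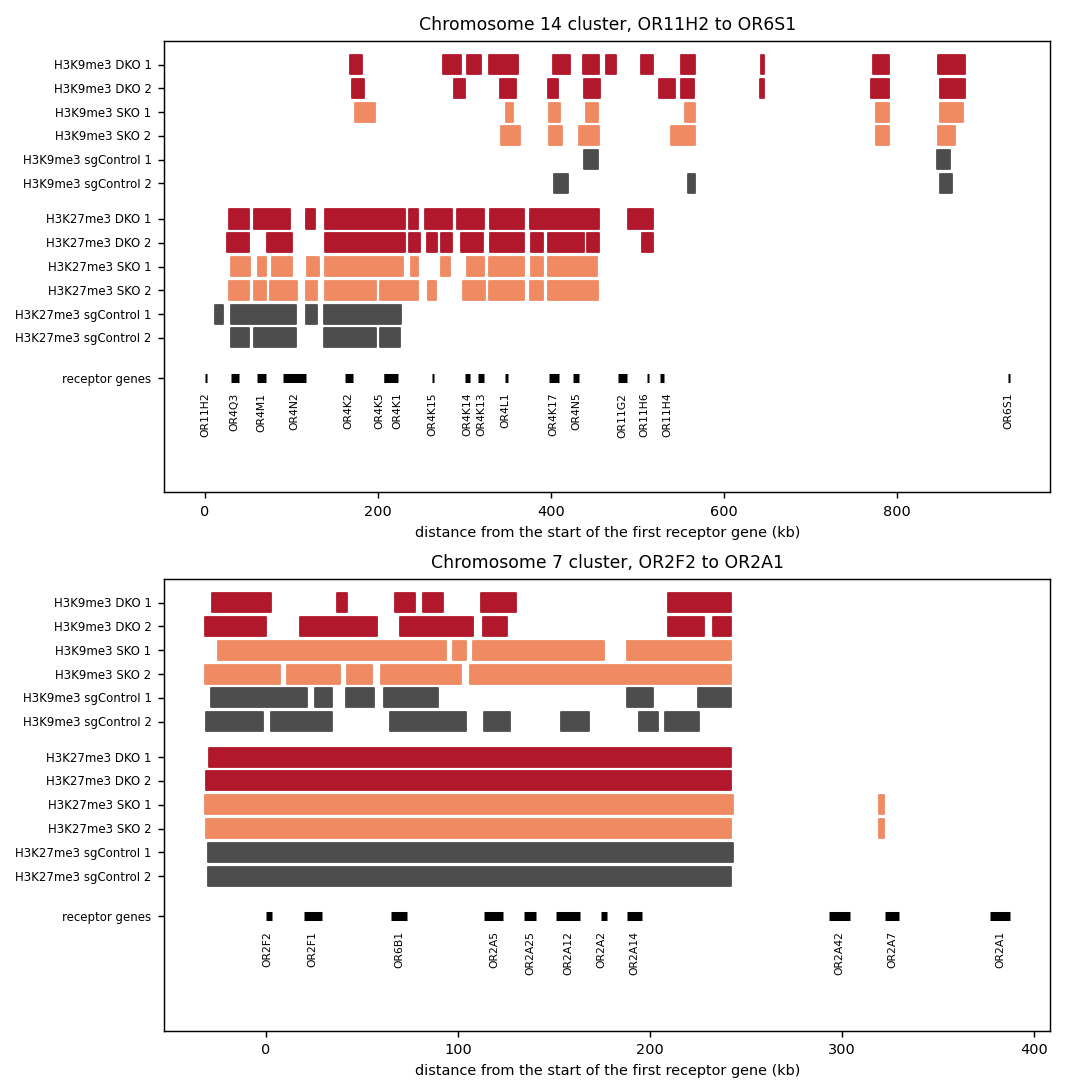
Domains over the chromosome 14 cluster (top) and the chromosome 7 cluster (bottom) by distance in kb from the start of the first receptor, 1 row per library with DKO above SKO above sgControl for each mark, receptor genes below (drawn at least 3 kb wide). On chromosome 14 the H3K27me3 rows of both knockouts hold separate further domains between OR4K1 and OR4N5, where those of sgControl are empty, and on chromosome 7 the H3K9me3 rows of SKO are fuller than those of DKO and sgControl while the H3K27me3 rows match.

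H3K27me3 losses lay in other clusters, with 9 genes in each knockout. All of them were also called at equal covered length, which was nearly fixed in advance, since trimming cut almost only the knockout lists. The OR6B2-OR6B3 pair near the end of chromosome 2 (chr2:240029491-240053521) was at 0% in all 4 knockout libraries, against 96.2% and 76.2% in sgControl, and had no H3K9me3 in any. OR6B3 itself was at 0%, against 100% and 79.6%, while OR6B2 was at 3.09% in sgControl, the domain covering little of its body. On chromosome 19, OR10H2-OR10H4 (chr19:15728024-15949958) had 27.2% and 28.6% H3K27me3 in DKO and 38.7% and 37.6% in SKO, against 55.7% and 56.4% in sgControl, a loss that passed the rule in DKO. OR10H1 was at 0% and 0% in DKO and 40.2% and 0% in SKO, against 100% and 100% in sgControl, and OR10H5 and OR10H3 were called lost in both knockouts. OR10H4 kept 100% of both marks in all libraries.

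The chromosome 17 cluster OR1D5-OR1E2 (chr17:3062669-3433841), home of several receptors with described ligands, lost part of both marks. Its H3K27me3 was 53.5% and 58.7% in DKO and 51.1% and 50.0% in SKO, against 78.5% and 81.5% in sgControl, and its H3K9me3 26.9% and 30.6% in DKO and 30.4% and 22.6% in SKO, against 39.5% and 41.6%. The H3K27me3 loss passed the rule in SKO, and the H3K9me3 groups did not overlap but lay under 25 points apart. OR1D2, the bourgeonal receptor also known from sperm, had 17.7% and 17.7% H3K27me3 in DKO and 17.7% and 0% in SKO, against 100% and 100%, with 0% and 77.9% H3K9me3 in DKO and 0% and 0% in SKO, against 100% and 100%. OR1A1, a broadly tuned receptor for terpenes, had 10.1% and 17.2% H3K9me3 in DKO and the same in SKO, against 81.3% and 81.3% in sgControl. Its neighbour OR1A2 kept 100% of H3K27me3 throughout, and 100% of H3K9me3 in all libraries but SKO replicate 1. OR3A1, a receptor for helional, went the other way for H3K9me3 in SKO, with 100% and 100%, against 0% and 24.3% in sgControl, and 43.0% and 100% in DKO. OR1G1 had 100% and 0% H3K9me3 in both SKO and sgControl, so its replicates disagreed.

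On chromosome 9 a cluster lost H3K9me3 while keeping H3K27me3. OR13F1-OR13D1 (chr9:104504263-104695462, 8 receptors) was 7.53% and 9.62% in H3K9me3 domains in DKO and 0% and 0% in SKO, against 39.5% and 69.9% in sgControl, and 97.1% to 100% in H3K27me3 domains in every library. The loss passed the rule in both knockouts, but not at equal covered length, and the sgControl libraries also differed from each other. OR13C9 and OR13D1 were at 0% H3K9me3 in all 4 knockout libraries, against 100% in sgControl. OR13C8 was at 100% in both DKO libraries and 0% in both SKO libraries, and at 0% and 100% in sgControl. In the other large cluster of the chromosome, OR1J2-OR1K1 (chr9:122447433-122801073, 14 receptors), H3K9me3 was 86.6% and 91.6% in DKO, 91.6% and 85.0% in SKO, and 89.1% and 87.3% in sgControl, while at its end OR5C1 and OR1K1 had no H3K27me3 in any knockout library, against 100% in both of sgControl.

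Alone on chromosome 7, OR2AE1 (chr7:99876062-99877033) had 0% H3K9me3 in all 4 knockout libraries, against 100% in both of sgControl, a loss not called at equal covered length, and no H3K27me3. Further along, OR2F2-OR2A1 (chr7:143935233-144322737, 11 receptors) set the knockouts apart from each other. H3K9me3 covered 20.6% and 30.8% of it in DKO and 57.4% and 58.0% in SKO, against 26.8% and 32.6% in sgControl, while H3K27me3 stayed between 62.5% and 63.4% in all 6 libraries. DKO overlapped sgControl and both lay below SKO. OR2A25 and OR2A2 were at 100% H3K9me3 in SKO and at 0% in all DKO and sgControl libraries, and OR2A12 was at 100% and 100% in SKO, 0% and 0% in DKO, and 0% and 80.1% in sgControl. OR6B1, towards the start of the cluster, was at 75.4% and 47.1% in DKO, against 100% in all SKO and sgControl libraries. OR6V1, in a pair of its own, had 100% and 0% in DKO and 100% and 100% in SKO, against 0% and 0%. H3K9me3 over the whole of chromosome 7 covered 25.1 to 25.3 Mb in DKO and 58.1 to 58.4 Mb in SKO, against 74.3 to 76.6 Mb in sgControl, so DKO stood apart on this chromosome as a whole, and its part in the receptor values was not tested. Without chromosome 7, DKO against SKO had 12 receptors gained and 2 lost.

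On chromosome 12, DKO again differed from SKO, with more H3K9me3. OR9K2-OR10P1 (chr12:55126406-55637833, 15 receptors) was 75.9% and 73.7% in H3K9me3 domains in DKO and 49.4% and 47.4% in SKO, against 60.4% and 51.0% in sgControl, and between 87.6% and 95.6% in H3K27me3 domains in all libraries. DKO lay above both other genotypes and SKO below, without overlap, but the nearest libraries were under 25 points apart in each comparison, so the cluster was not called. At equal covered length, where the sgControl lists were cut most, the cluster was called gained in DKO against sgControl. OR6C65 and OR6C70 were at 100% H3K9me3 in both DKO libraries and at 0% in all SKO and sgControl libraries, and OR6C75 was at 79.7% and 79.7%, against 0%, a gain not called at equal covered length. OR10A7 and OR6C68 were at 100% in DKO and sgControl and at 0% in SKO, and their loss in SKO against sgControl was not called at equal covered length. Chromosome 12 as a whole had 22.8 to 22.9 Mb in H3K9me3 domains in DKO and 18.5 to 18.6 Mb in SKO, against 25.4 to 27.6 Mb in sgControl. Elsewhere on the chromosome OR10AD1 gained H3K9me3 in both knockouts, with 100% and 100% in DKO and 93.5% and 100% in SKO, against 0% and 0%.

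On chromosome 19, 1 of 3 clusters of at least 5 receptors passed the rule for an H3K9me3 gain, in DKO. OR7C1-OR1I1 (chr19:14798515-15092970, 6 receptors) was 93.2% and 88.3% in H3K9me3 domains in DKO and 85.3% and 76.3% in SKO, against 55.4% and 48.9% in sgControl. Both knockouts lay above sgControl without overlap, by 38.6 points in DKO, which passed the rule, and 28.6 points in SKO, where the nearest libraries were under 25 points apart. OR1I1 was at 61.2% and 68.7% in DKO, against 0% in all SKO and sgControl libraries. OR2Z1-OR7D4 (chr19:8721634-9252625, 8 receptors) had 83.4% and 87.0% in DKO and 74.8% and 74.1% in SKO, against 70.8% and 73.2%. OR10H2-OR10H4 had 39.1% and 34.8% in DKO and 48.8% and 48.8% in SKO, against 39.8% and 37.3%, so that DKO overlapped sgControl. OR7D4, the androstenone receptor at the end of OR2Z1-OR7D4, carried both marks over 100% of its body in all 12 libraries.

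The largest cluster, OR2B11-OR14I1 near the end of chromosome 1 (chr1:247449118-248702766, 43 receptors), held H3K27me3 over 76.3% and 76.4% of its span in DKO and 72.8% and 73.6% in SKO, against 76.6% and 76.9% in sgControl. Its H3K9me3 was 64.9% and 55.8% in DKO and 55.5% and 58.0% in SKO, against 79.3% and 76.5%, a difference of -17.5 and -21.1 points that did not reach the rule. OR14A16 was at 0% H3K9me3 in both SKO libraries, against 100% in sgControl, and at 52.0% and 100% in DKO. OR2L8 was at 0% in SKO, against 100%, and at 100% and 0% in DKO, and OR2M3, a receptor for onion thiols, was at 0% and 73.7% in DKO and at 100% in all other libraries. OR2T34 had 0% H3K27me3 in all knockout libraries, against 100% and 100% in sgControl. OR2W3 and OR2T11 were not called for either mark.

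The cluster beside the major histocompatibility complex on chromosome 6 lay almost wholly in domains of both marks. OR2W1-OR2H2 (chr6:29044213-29590500, 14 receptors) was 96.9% and 96.6% in H3K9me3 domains in DKO, 94.0% and 94.7% in SKO, and 96.3% and 93.7% in sgControl, and 99.3% to 100% in H3K27me3 domains. OR2W1, OR2J3 and OR2H1 were at 100% for both marks in all 12 libraries. OR12D2 gained H3K9me3 in both knockouts, with 100% in all 4 libraries, against 50.8% and 50.8% in sgControl. OR2H2, at the edge, gained it in DKO, with 100% and 83.3% in DKO and 0% and 23.8% in SKO, against 38.7% and 0% in sgControl. OR2B6, in a pair of its own on the same chromosome, also carried both marks over 100% of its body in all 12 libraries. By contrast, OR1F1-OR2C1 on chromosome 16 carried H3K9me3 over 96.2% and 93.9% of its span in DKO, 91.2% and 85.9% in SKO, and 90.1% and 89.2% in sgControl, with no H3K27me3 in any library.

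**Figure D5:**
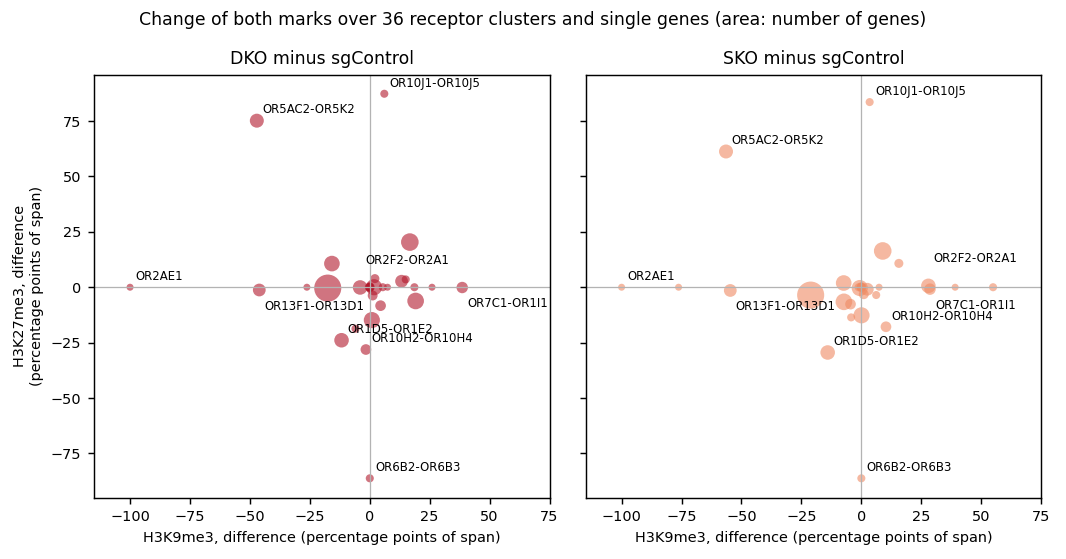
Difference in percent of span between DKO (left) or SKO (right) and sgControl for 36 clusters and single genes, H3K9me3 on the horizontal and H3K27me3 on the vertical axis in percentage points, with circle area growing with the number of receptors. In each knockout 14 of the 36 points lie within 5 points of 0 for both marks and 4 lie at least 10 points away for both, and OR5AC2-OR5K2, at the upper left, is the one called for both.

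In all, 33 receptors were at 0% for both marks in all 12 libraries and 40 at 100%. Many of the 33 belong to recent duplicates, among them OR4F5, OR4F16 and OR4F29 of the chromosome 1 end, OR2A1, OR2A7 and OR2A42 of chromosome 7, and OR4M2, OR4M2B, OR4N4 and OR4N4C of chromosome 15. Reads from such copies match several places, and the sources used here do not say how the authors placed them, so a 0% there is uncertain. Of the 33, 12 had no promoter sequence in the table. OR4M2B and OR4M2 show how alike such copies are: over the 300 bases of their promoters (plus strand, chr15:21637659-21637958 and chr15:22080277-22080576, GRCh38.p14) they differ at 1 base, in capitals, and are 99.7% identical.
OR4M2B: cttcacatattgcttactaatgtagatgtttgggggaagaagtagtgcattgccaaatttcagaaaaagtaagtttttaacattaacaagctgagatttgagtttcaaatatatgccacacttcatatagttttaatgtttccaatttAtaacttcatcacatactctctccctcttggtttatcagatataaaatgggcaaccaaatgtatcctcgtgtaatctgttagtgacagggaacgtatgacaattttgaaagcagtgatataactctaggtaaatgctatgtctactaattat
OR4M2: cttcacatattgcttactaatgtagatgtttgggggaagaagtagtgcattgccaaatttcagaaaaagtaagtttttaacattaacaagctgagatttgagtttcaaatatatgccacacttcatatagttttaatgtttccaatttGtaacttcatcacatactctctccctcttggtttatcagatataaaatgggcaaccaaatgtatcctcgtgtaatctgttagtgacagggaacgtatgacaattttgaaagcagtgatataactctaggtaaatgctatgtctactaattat
The only other pair of promoters at or above 97% identity, OR7C1 and OR7A5, was the same window, since the annotation gives both genes 1 start. Of the 174 members with a sequence and no such partner, 19 were at 0% throughout, among them single-copy genes such as OR6J1.

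Few of these genes had a SETDB1 peak nearby, though their clusters held more peaks per Mb than the genome, as given below. A longer gene has more room for a peak, and the shares per gene were not corrected for gene length. A peak within 2 kb of the gene body in both WT libraries was found for 11 of the 220 (5.00%), against 4093 of 19582 genes that are no olfactory receptor (20.9%) and 2 of 171 receptors of chromosome 11 (1.17%). At 10 kb it was 23 of 220, against 27.1% of those other genes, and with a -log10 p of at least 10 it was 5 (2.27%), against 8.71%. The 11 were OR10K2, OR6P1, OR6N1, OR9A4, OR1J2, OR1L4, OR10AD1, OR2AP1, OR2C1, OR7E24 and OR7C1, named after their peaks were seen. Each of them averaged at least 87.5% H3K9me3 in DKO and at least 84.1% in SKO. In sgControl OR10K2, OR1L4, OR2C1 and OR7E24 already averaged 100%, OR2AP1 93.4%, OR9A4 92.6% and OR1J2 83.2%. OR6N1 averaged 58.9% and OR6P1 55.9% there. Receptors without a peak were not set beside these, and a link of the peaks with H3K9me3 was not tested. OR10AD1 averaged 100% in DKO and 96.8% in SKO, against 0% in sgControl, and OR7C1 averaged 89.1% in DKO and 100% in SKO, against 36.9% in sgControl. The peaks were measured in WT cells only, so nothing is known of SETDB1 in the knockouts. Per Mb, the clusters of at least 2 receptors held 10.2 and 10.8 peaks in the 2 libraries, against 7.73 and 8.04 over the genome, with 25 and 29 of them in OR2Z1-OR7D4.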

How the data were processed

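Chromatin immunoprecipitation libraries of U937 cells were sequenced and domains of H3K9me3 and H3K27me3 were called by the authors with epic2 in each library separately, per the file names. The deposited lists give for each domain a read count that is not scaled for depth or spike-in and a score of the caller, used here to order the domains of one list and for nothing else. The deposited SETDB1 peak lists give a -log10 p-value for each peak, of 5 or more. Per the submitters' processing notes, the tools were SICER, deepTools 3.5.6, Trim Galore 0.6.10 and FastQC 0.12.1, with the builds dm6 and hg38. Not given in the sources used here are the aligner, read filters, treatment of reads with several matches, caller settings and SETDB1 peak caller. The lists hold no input count, and input libraries were not used here.

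Percent of the gene body inside domains was computed for each library and 19974 protein-coding genes of RefSeq GRCh38.p14, the same build as the lists, with domain ends set to the 800 bp grid. Calls needed libraries that did not overlap and 25 percentage points between the nearest pair. Cluster spans were compared with 250 kb windows. The alternatives were a threshold of 10 or 50 points, the upper 50% of domains by score, lists of equal covered length, 10 kb flanks, cluster gaps of 200 or 1000 kb, autosomes only, no chromosome 7, each library left out, and limma 3.58.1 on the percents with and without a replicate block. The call rule and limma were tried on simulated gene percents built from the H3K9me3 values of these data, and the percent step on a few made-up intervals. Python 3.11.15 and pandas 2.3.3 were used. The genes named in each comparison were the first 5 gained and 5 lost by the difference of the nearest libraries, at most 2 of a cluster, all clusters of at least 5 members, and receptors with a described ligand or place. A rule on near-identical proteins could not be applied without protein sequences, and promoter identity was used. The members and lists were chosen with earlier results of these data known. Sample titles gave the replicate numbers, and the replicate differences of same-numbered libraries correlated at -0.0145 to 0.0503 over genes, so the numbers were not taken to pair libraries.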

Additional observations from a re-analysis of the deposited data

Results flagged for a closer look

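Over 2 clusters the mean H3K9me3 of the knockouts lay on opposite sides of sgControl. Neither cluster passed the rule in any comparison of the full lists, and this difference was not tested. Over OR9K2-OR10P1 on chromosome 12, all libraries of DKO lay above and all of SKO below those of sgControl, with mean differences of 19.1 and -7.27 percentage points of the span. At equal covered length, where the sgControl lists were cut most, this cluster was called gained in DKO against sgControl. Over OR5AU1-OR4E1 on chromosome 14, the mean differences were 4.50 points in DKO and -4.52 points in SKO. Members called in DKO against SKO were OR10A7, OR6C74, OR6C75, OR6C65, OR6C70 and OR6C68 in the first cluster and OR4E2 in the second. All but OR6C75 were also called at equal covered length. Against sgControl, the losses of OR10A7, OR6C74, OR6C68 and OR4E2 in SKO were not called there.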

How the results depend on the processing

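Of the values recomputed under each alternative, 141 stayed within the limits set and 87 moved. With lists of equal covered length, receptors gained and lost against sgControl numbered 23 and 10 in DKO and 23 and 13 in SKO for H3K9me3, and 8 and 15 in DKO and 7 and 14 in SKO for H3K27me3, with 0 gained and 2 lost in DKO against SKO. The means were then 52.8%, 49.8% and 47.7% H3K9me3 and 57.5%, 57.2% and 61.5% H3K27me3 in DKO, SKO and sgControl. Over clusters this gave 4 gained and 1 lost for H3K9me3 in SKO, and 3 gained and 1 lost in DKO, against sgControl. With domains in the upper 50% by score, 6 receptors gained H3K9me3 in DKO against sgControl, 0 gained and 2 lost H3K27me3 in DKO against SKO, 2 clusters gained and 2 lost H3K9me3 in SKO, 1 lost it in DKO, 2 lost it in DKO against SKO, and 1 lost H3K27me3 in each knockout. At 50 points, 7 receptors gained H3K9me3 in SKO and 6 in DKO. With 10 kb flanks, 5 gained H3K27me3 in DKO against SKO. Without chromosome 7, 2 lost H3K9me3 in DKO against SKO. With a 200 kb cluster gap, 2 clusters gained H3K9me3 in each knockout and 1 gained it in DKO against SKO. With a 1000 kb gap, 0 gained it in DKO, 0 lost it in DKO against SKO, 1 gained H3K27me3 in SKO and 1 lost it in DKO. Of the 36 clusters and single genes, 16 held a SETDB1 peak in both libraries, and 8 at a -log10 p of at least 10. No background share was computed for this count, and a longer span has more room for a peak.

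limma, with all 6 libraries of a mark and Benjamini-Hochberg adjustment over all genes, was of limited use because more than 50% of genes had no spread between libraries. Without a replicate block it called 8 receptors gained and 9 lost for H3K9me3 in DKO, 7 and 12 in SKO, and 7 and 2 in DKO against SKO, and for H3K27me3 11 and 7, 10 and 6, and 1 and 0. With the replicate block it called 6 and 8, 4 and 11, and 6 and 2 for H3K9me3, and 9 and 4, 8 and 4, and 1 and 0 for H3K27me3.

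With 1 library left out, which relaxes the rule, receptors gained and lost numbered 12 to 18 and 20 to 28 in DKO, 12 to 19 and 27 to 34 in SKO, and 19 to 23 and 8 to 17 in DKO against SKO for H3K9me3. For H3K27me3 they numbered 16 to 18 and 9 to 13, 12 to 14 and 9 to 12, and 4 to 8 and 0 to 3. Mean percents over the receptors under the upper 50% of domains were 43.9%, 40.1% and 50.7% H3K9me3 and 57.8%, 57.5% and 58.9% H3K27me3 in DKO, SKO and sgControl, and with 10 kb flanks 53.7%, 48.7% and 57.0%, and 62.7%, 60.7% and 60.2%. Depth limits these lists, since a thin domain in a library with fewer reads may not have been called.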

Other observations

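Other chemosensory genes gave values beside those of the receptors. Of 28 taste receptor genes, 9 gained and 1 lost H3K9me3 in SKO against sgControl, where 4.11% and 4.5% of all genes did. In DKO 2 gained and 2 lost it, where 3.84% and 4.23% of all genes did. Most of the gains in SKO were neighbours in the genome order of the list (TAS2R4, TAS2R5, TAS2R38, TAS2R39, TAS2R40, TAS2R60 and TAS2R41), so they are not separate observations. TAS2R39, TAS2R40 and TAS2R60, bitter receptors of chromosome 7, were at 100% H3K9me3 in both SKO libraries, at 0% to 34.9% in DKO and at 0% in sgControl, the order seen for OR2A25 and OR2A2. The list as a whole averaged 21.4% ± 0.244 in DKO and 37.6% ± 2.39 in SKO, against 17.3% ± 0.521 in sgControl (SD, n = 2), and 25 of its 28 genes were free of H3K27me3 in every library. All 6 trace amine receptors, a family whose members other than TAAR1 are olfactory receptors in mice, were at 100% H3K27me3 in all libraries. In SKO 1 of them, TAAR5, lost H3K9me3, with 68.7% and 57.4%, against 100% and 100% in sgControl. Of 3 vomeronasal receptor genes found, all were at 100% H3K9me3 in all libraries.

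Of 16 signalling and trafficking genes of the odour response, 9 were free of H3K9me3, 9 of H3K27me3 and 7 of both in every library (43.8%), against 52.7% of all protein-coding genes free of both. CNGA2, a subunit of the odour-gated ion channel, gained H3K9me3 in DKO, with 100% and 100%, against 0% in all SKO and sgControl libraries, under H3K27me3 at 100% throughout. ANO2, the calcium-activated chloride channel of olfactory cilia, had 61.5% and 59.9% H3K9me3 in DKO and 19.4% and 17.3% in SKO, against 17.3% and 9.80% in sgControl. RTP1, which brings odorant receptors to the cell surface, was at 100% H3K27me3 in all 4 knockout libraries, against 0% in sgControl. CAMK2B lost H3K27me3 in DKO, with 0% and 0%, against 43.4% and 26.5% in sgControl. Of 14 regulators of olfactory neurons, 8 were free of H3K9me3, 6 of H3K27me3 and 5 of both. Among them NEUROD1 and BCL11B lost H3K27me3 in both knockouts and RTP1, which is in both lists, gained it. Of the 7 T cell genes, CD8A was called gained for H3K9me3 in SKO and CD2 in DKO, where 4.11% and 3.84% of all genes were. The myeloid gene CD33 was called gained in DKO too, with 58.0% and 69.2%, against 0% and 0% in sgControl. No B cell or erythroid gene was called, and no T or B cell gene carried H3K27me3.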
